A study of Mus musculus with 16 samples.

Results

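Rapamycin was compared directly with propranolol in wild type (WT) mouse brain microvascular endothelial cells (mBMEC): 2 libraries of rapamycin-treated cells (WT+R) were set against 2 libraries of propranolol-treated cells (WT+P), which together make 4 of the 16 RNA-seq libraries of the series. The cells came from brains of adult mice of 8 to 10 weeks that carried Cdh5(PAC)-CreERT2 and Pdcd10 fl/fl on a C57BL/6J background, so that a Cre recombinase driven by an endothelial cadherin promoter can remove Pdcd10 (also called Ccm3) once 4-hydroxytamoxifen is given. WT cells carried the same floxed alleles and transgene without that induction, and KO cells were induced. WT+P received 10 µM propranolol and WT+R 100 nM rapamycin, both for 24 h, and 3 untreated WT libraries gave the starting level. The same treatments in KO cells, with 3 libraries each (KO+P and KO+R), gave the same drug difference in further libraries. Each replicate was a separate culture at passage 2, selected with puromycin and pooled from the brains of several mice, and no vehicle-treated control was named for either drug. The doses of the drugs differed, so the comparison is between the treatments as given and not between equal exposures.

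Rapamycin binds FKBP12 and blocks mTORC1, the kinase complex that couples nutrient and growth factor signals to protein, lipid and nucleotide synthesis. Among the transcriptional arms of mTORC1 are the SREBP factors, which drive sterol and fatty acid synthesis genes, and ATF4, which drives amino acid synthesis, uptake and tRNA charging genes. Propranolol blocks beta-adrenergic receptors, which signal through cAMP, and is a lipophilic amine. Both drugs have been proposed for cerebral cavernous malformations, which arise in brain endothelium that lacks a CCM protein.

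The 4 libraries held 21378543 and 24997820 estimated reads in WT+P and 24022546 and 23625730 in WT+R, within the 18830503 to 26203339 of the whole series. Pdcd10, the floxed gene, was at 60.8 and 32.5 CPM (the gene's share of a library's counts, scaled to a common total) in WT+P and 52.0 and 27.7 CPM in WT+R, above the 7.83 to 16.74 CPM of the 9 KO libraries. Among untreated WT libraries, replicates 2 and 3 were at 31.2 and 47.0 CPM, whereas the library labelled WT replicate 1 was at 11.5 CPM, inside the KO range. Endothelial markers were high in all 4 drug-treated libraries: the 16 markers summed to 10140 and 14660 CPM in WT+P and to 16830 and 16450 CPM in WT+R, with Cdh5, which encodes VE-cadherin, at 2698 and 3390 against 2592 and 2803 CPM. Markers of astrocytes and oligodendrocytes summed to at most 6.31 CPM in any of these libraries, with Aqp4, Gfap and Mbp at or near 0. The 7 microglia and macrophage markers summed to 5.688 and 13.01 CPM in WT+P and 1.88 and 6.187 CPM in WT+R, with Cx3cr1 and P2ry12 at 0. All 4 of them that were tested had log2 changes below 0 (median -1.32), and Cd68, a macrophage lysosomal protein, was called lower, at 4.81 and 11.0 against 1.16 and 4.90 CPM (-1.48 ± 0.36, edgeR adjusted p = 0.0382). The 2 drugs overlapped for Cd68. It did not pass without the replicate block (edgeR adjusted p = 0.372), and 0 of these markers were called without WT replicate 1. Aif1, too low to be tested, was higher under rapamycin, with 2 and 3 reads in WT+P and 11 and 8 in WT+R. The 6 fibroblast markers summed to 14.8 and 64.44 CPM in WT+P and 8.772 and 37.9 CPM in WT+R, with Lum at 0, and the 6 neuronal markers to 29.92 and 61.83 against 33.79 and 93.88 CPM, with Snap25 at or near 0. The 8 mural markers summed to 174.6 and 323.3 CPM in WT+P and 564.5 and 631.4 CPM in WT+R, nearly all of it Acta2. In the bulk libraries used here, fewer cells of a type and less RNA per cell cannot be told apart. WT+P replicate 1 stood apart in the stress genes described further on, with Hspa5, an endoplasmic reticulum chaperone of which 44.2% of exonic bases overlap another gene, at 4604 CPM against 593 CPM in WT+P replicate 2 and 299 to 506 CPM in the other WT libraries.

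Of 14838 genes tested, 731 differed between the drugs by more than 1.5-fold at an adjusted p under 0.05 in edgeR's quasi-likelihood test with Benjamini-Hochberg adjustment and the replicate number as a block, which is 4.93% of the genes. Of these, 303 (2.04%) were higher in WT+R and 428 (2.88%) were higher in WT+P, and these are the genes called below. Without the replicate block, 194 genes were called, 73 higher and 121 lower in WT+R, and all 194 were among the 731. Leaving out 1 library mattered more for some libraries than for others: 163 genes were called without WT+P replicate 1, 86 without WT+R replicate 1, 408 without WT+R replicate 2 and 1766 without WT+P replicate 2. Each of the 731 genes kept its direction in these fits.

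The difference was larger in the replicate 1 pair. Genes called higher in WT+R had a median log2 difference of 1.301 between the replicate 1 libraries and of 0.83 between the replicate 2 libraries, and 258 of the 303 differed more in replicate 1. Genes called lower had medians of -1.52 and -1.06, and 327 of 428 differed more in replicate 1. The 2 libraries of a drug did not overlap with the 2 of the other drug for 286 of the 303 and 405 of the 428 genes, while over all tested genes 17.5% lay apart in the higher and 19.4% in the lower direction. The called genes were chosen from these same 4 libraries, so their separation is largely set by that choice and is no further evidence. In KO cells the 3 pairs of KO+R and KO+P libraries all differed the same way for 297 of the 303 genes (98.0%) and 414 of the 428 (96.7%), beside 25.4% and 28.9% of all tested genes. By the same test KO+R against KO+P called 1428 genes (9.62%), of which 594 (4%) were higher under rapamycin and 834 (5.62%) higher under propranolol, and 575 genes were called in both genotypes with the same direction, which is 78.7% of the WT calls and 40.3% of the KO calls. These KO libraries are not independent of the WT contrast: they entered the same fit, and same-numbered WT and KO libraries deviated together from their group means (r of 0.683 between WT+P and KO+P replicate 1 and of 0.56 between WT+R and KO+R replicate 1). In the KO replicate 3 pair, whose number no WT drug library has, 301 of the 303 genes and 423 of the 428 differed the same way, beside 45.7% and 53.7% of all tested genes.

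**Figure D1:**
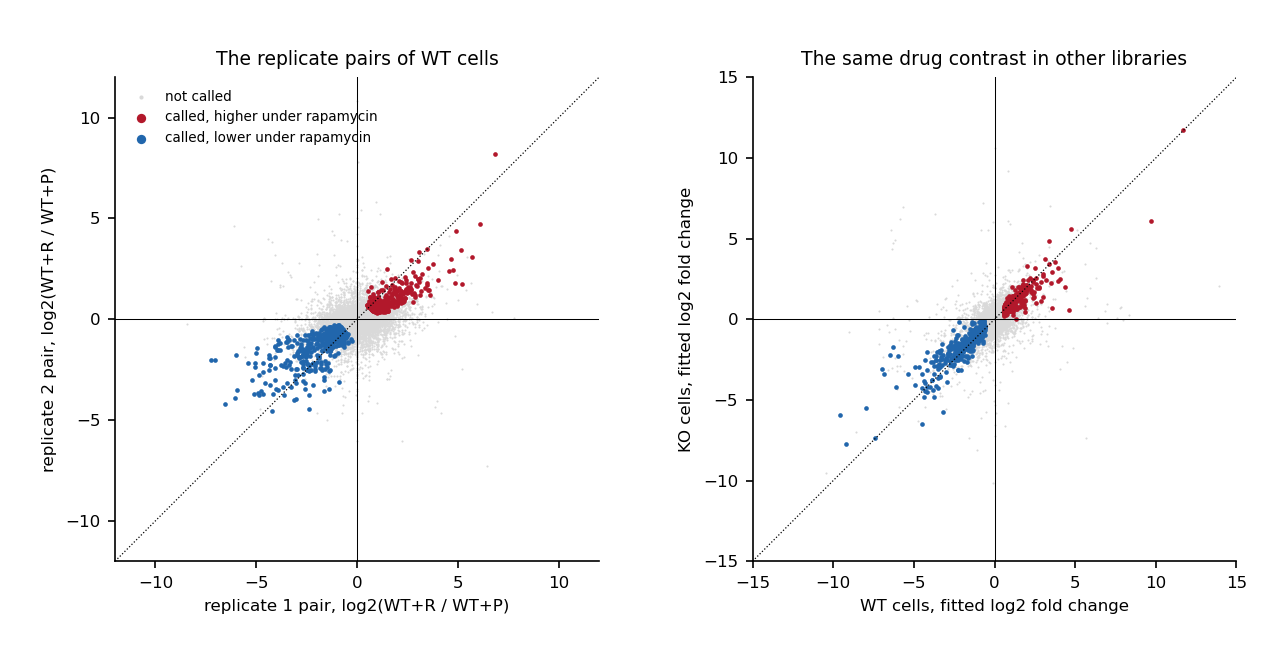
Log2 difference between rapamycin and propranolol for each tested gene, in WT replicate 1 against WT replicate 2 (left, from CPM) and as fitted in WT against KO cells (right), with called genes in red (303 higher in WT+R) and blue (428 lower) and the dotted line marking equality. Most called genes lie closer to the replicate 1 axis in the left panel, and the red and blue points keep their side of 0 in KO cells in the right panel.

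Genes of cholesterol synthesis and uptake were lower under rapamycin than under propranolol. Of 25 tested members, 21 were called lower in WT+R and 0 higher, with a median log2 change of -1.32 beside -0.03 over all tested genes. Insig1, which holds SREBP in the endoplasmic reticulum and is itself an SREBP target, was at 398 and 205 CPM in WT+P and 58.9 and 47.8 CPM in WT+R (log2 change -2.49 ± 0.36 SE, edgeR adjusted p = 0.00324). In untreated cells Insig1 was at 49.4 to 58.1 CPM, close to the level in WT+R. Cyp51, lanosterol demethylase, was at 56.8 and 37.4 against 6.45 and 10.4 CPM (-2.56 ± 0.35, edgeR adjusted p = 0.00258). Idi1, isopentenyl diphosphate isomerase, was at 40.2 and 49.2 against 4.97 and 14.4 CPM (-2.34 ± 0.27, edgeR adjusted p = 0.0013), without overlap between the drugs for any of these 3 genes. Srebf2, the factor itself, was among the 21, at a log2 change of -0.95. The 4 members not called were Mvd, Mvk, Ebp and Scap, between -0.65 and 0.05. Without the replicate block 14 of the 25 were called, 11 without WT+P replicate 1 and 7 without WT+R replicate 1.

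Fatty acid synthesis and desaturation genes followed in part, with 8 of 18 called lower in WT+R, 0 higher and a median of -0.62. The calls were 3 without the replicate block, 3 without WT+P replicate 1 and 3 without WT+R replicate 1. Scd2, a stearoyl-CoA desaturase (chr19:44281613-44295303, + strand, GRCm39), was at 606 and 699 CPM in WT+P and 25.8 and 78.9 CPM in WT+R, with 129 to 182 CPM untreated (-3.81 ± 0.40, edgeR adjusted p = 0.000961). Scd1, its paralog, was at 23.2 and 36.6 against 1.48 and 12.8 CPM (-2.50 ± 0.55, edgeR adjusted p = 0.0254). Elovl6, a fatty acid elongase, was at 8.92 and 12.2 against 1.57 and 2.58 CPM (-2.36 ± 0.28, edgeR adjusted p = 0.00178). Fads2, a desaturase of polyunsaturated chains, was at 92.3 and 75.5 against 14.5 and 26.9 CPM (-2.09 ± 0.35, edgeR adjusted p = 0.00729). All 4 were higher in both propranolol libraries than in either rapamycin library. Fasn, fatty acid synthase, differed less in size, at -1.02 ± 0.11 (edgeR adjusted p = 0.000995). Soat2, which esterifies cholesterol, had 280 and 20 reads in WT+P and 0 and 3 in WT+R, a pooled ratio of 97.1 with an exact 95% interval of 32.9 to 473 that covers counting error only. Genes of sterol efflux under LXR control had 0 of 9 called by edgeR (2 at an unadjusted p under 0.05, 1 called by DESeq2), with Apoe, an apolipoprotein, at 903 and 760 against 4155 and 1884 CPM (1.66 ± 0.46, edgeR adjusted p = 0.0571).

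The sterol regulatory element, searched as TCACNCCAC on both strands from 250 bases before to 50 after each RefSeq start site, was held by 1 of the 18 tested cholesterol genes with a promoter in the table (5.56%), beside 1.44% of 27025 genes with a promoter. That gene was Hmgcs1, HMG-CoA synthase, which was at 76.1 and 70.2 CPM in WT+P and 28.9 and 27.8 CPM in WT+R (-1.37 ± 0.15, edgeR adjusted p = 0.00112). Its match, 128 bases before the start and shown in capitals with its flanks on the gene's strand, is given because it was the only match in the cholesterol list (chr13:119690194-119690242, GRCm38.p6).
Hmgcs1: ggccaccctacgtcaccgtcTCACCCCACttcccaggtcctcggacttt
None of 15 fatty acid genes with a promoter held the letters. A match is a description of the window and not a test of binding.

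Genes of serine, glycine, asparagine and proline synthesis and of folate-bound carbon were likewise higher under propranolol. Of 14 tested, 8 were called lower in WT+R, 0 higher, all 14 had a log2 change below 0, and the median was -1.77. Psat1, phosphoserine aminotransferase, was at 144 and 48.9 CPM in WT+P and 4.296 and 9.28 CPM in WT+R, with 12.9, 28.2 and 19.1 CPM untreated (-3.87 ± 0.74, edgeR adjusted p = 0.0139). Mthfd2, a mitochondrial folate enzyme, was at 245 and 62.3 against 7.21 and 13.9 CPM (-3.99 ± 0.85, edgeR adjusted p = 0.0213). Phgdh, the first enzyme of serine synthesis, was at 505 and 185 against 30.4 and 74.9 CPM (-2.77 ± 0.71, edgeR adjusted p = 0.0445). For each of the 3 the WT+P libraries were above both WT+R libraries, and replicate 1 of WT+P was well above replicate 2. Aldh1l2, which oxidises formyl-tetrahydrofolate, was at 22.8 and 8.75 against 0.09 and 2.06 CPM (-4.19 ± 1.08, edgeR adjusted p = 0.0455).

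Amino acid transporters had 5 of 18 members called lower in WT+R, 0 higher and a median of -1.13. Slc7a5, the light chain of the large neutral amino acid transporter (chr8:122607884-122634433, - strand, GRCm39), was at 487 and 171 CPM in WT+P and 28.9 and 31.7 CPM in WT+R, with 96.2 to 112 CPM untreated (-3.38 ± 0.45, edgeR adjusted p = 0.00253). Slc7a11, the cystine and glutamate exchanger, was at 91.9 and 21.0 against 4.57 and 5.41 CPM (-3.36 ± 0.87, edgeR adjusted p = 0.046). The glycine transporter Slc6a9 was at 87.1 and 12.2 against 2.69 and 4.55 CPM (-3.61 ± 0.96, edgeR adjusted p = 0.0491), and 33.8% of its exonic bases overlap another gene, so that reads could be shared. Slc1a5, a glutamine transporter, differed less, at 19.8 and 20.4 against 6.85 and 8.98 CPM (-1.36 ± 0.27, edgeR adjusted p = 0.0173), and its 2 propranolol libraries were nearly equal. Cytosolic aminoacyl-tRNA synthetases, which charge tRNAs, had 4 of 20 called lower, 0 higher and a median of -0.94. They were Aars1 (-1.14 ± 0.27), Cars1 (-1.03 ± 0.25), Tars1 (-1.01 ± 0.27) and Hars1 (-0.63 ± 0.13), with edgeR adjusted p between 0.0197 and 0.0491. Of the exonic bases of Aars1 13.2% overlap other genes, among them Exosc6, which was listed at 0 reads in both WT+P libraries and at 222 and 575 reads in WT+R, and how the reads of the pair were divided was not tested.

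ATF4 and its stress partners had 9 of 18 called lower in WT+R, 0 higher, 18 of 18 log2 changes below 0 and a median of -1.43. Chac1, a glutathione-degrading ATF4 target (chr2:119180757-119184866, + strand, GRCm39), was at 574 and 112 CPM in WT+P and 19.8 and 16.2 CPM in WT+R, with 16.8 to 26.9 CPM untreated (-4.19 ± 0.78, edgeR adjusted p = 0.012). Atf5, a related transcription factor, was at 626 and 148 against 53.6 and 66.3 CPM (-2.60 ± 0.63, edgeR adjusted p = 0.0365). Trib3, a pseudokinase that feeds back on ATF4, was at 346 and 65.3 against 54.6 and 15.3 CPM (-2.44 ± 0.43, edgeR adjusted p = 0.00898). The 2 drugs did not overlap for these genes, yet WT+P replicate 2 lay within the untreated range for Trib3 (38.3 to 94.4 CPM). Ddit3, which encodes CHOP, was at 186 and 35.2 against 17.4 and 17.9 CPM (-2.41 ± 0.62, edgeR adjusted p = 0.0449), but 82.4% of its exonic bases overlap another gene. Stc2, Vldlr and Ddit4 had a different layout: their untreated levels were near those of WT+P, for example 35.5 to 78.7 CPM untreated, 72.0 and 50.0 CPM in WT+P and 19.1 and 13.1 CPM in WT+R for Vldlr, a lipoprotein receptor (-1.92 ± 0.36, edgeR adjusted p = 0.0129). Endoplasmic reticulum chaperones had 0 of 19 called by edgeR (6 at an unadjusted p under 0.05, 4 called by DESeq2), although all 19 log2 changes were below 0 (median -0.94). Herpud1, a factor in protein degradation, had the smallest p of that list at 440 and 86.6 against 60.5 and 57.8 CPM (-1.93 ± 0.54, edgeR adjusted p = 0.0582).

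The calls in these 4 amino acid and ATF4 lists were mostly lost in 3 of the 4 fits that left out a drug library. Without WT+P replicate 1 the called members were 0 of 14 in serine and folate synthesis, 1 of 18 transporters, 0 of 20 synthetases and 1 of 18 ATF4 and stress genes. Without WT+R replicate 1 they were 0 in each of the 4 lists, without WT+R replicate 2 they were 2, 1, 1 and 1, and without the replicate block 2, 1, 0 and 2. The log2 changes kept their direction, and without WT+P replicate 1 they were -2.66 for Psat1, -2.48 for Slc7a5 and -2.54 for Chac1. Other members came to smaller changes. Over all settings the change nearest to 0 was -1.26 for Atf5 and -0.63 for Aars1, against -2.60 and -1.14 in the main fit. Tars1 and Hars1 fell under 1.5-fold, at -0.52 and -0.46. Without WT+P replicate 2, in contrast, 11, 10, 13 and 16 were called. In KO cells, KO+R against KO+P called 11, 9, 11 and 12 members lower.

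The composite CCAAT and ATF4 element, searched as TGATGNAAN on both strands in the same promoter windows, was held by 2 of 12 serine and folate genes (16.7%), 2 of 12 transporters (16.7%), 5 of 13 synthetases (38.5%) and 5 of 16 ATF4 and stress genes (31.2%), beside 4.5% of all genes with a promoter. The matches of 5 called members, of large and of small difference, follow with the matched letters in capitals and 20 bases or fewer on each side, written on the strand of the gene (GRCm38.p6). Chac1 (chr2:119351028-119351076, + strand), Vldlr (chr19:27216799-27216847, + strand) and Aars1 (chr8:111033709-111033757, + strand) held the reverse complement at 185, 192 and 104 bases before the start. Asns, asparagine synthetase (chr6:7693210-7693252, - strand), held it in the sense direction 14 bases before the start, and Slc7a11 held a sense copy 57 bases (chr3:50443651-50443699, - strand) and a reverse copy 39 bases before the start.
Chac1: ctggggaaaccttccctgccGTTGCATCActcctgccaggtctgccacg
Vldlr: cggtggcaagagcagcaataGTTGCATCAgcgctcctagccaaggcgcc
Aars1: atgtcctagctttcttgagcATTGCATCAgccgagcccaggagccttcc
Asns: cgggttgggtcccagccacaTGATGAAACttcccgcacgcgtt
Slc7a11, sense copy: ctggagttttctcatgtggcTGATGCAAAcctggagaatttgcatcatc
These letters are held by members that differed strongly, such as Chac1 at -4.19, and by members that differed little, such as Aars1 at -1.14.

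**Figure D2:**
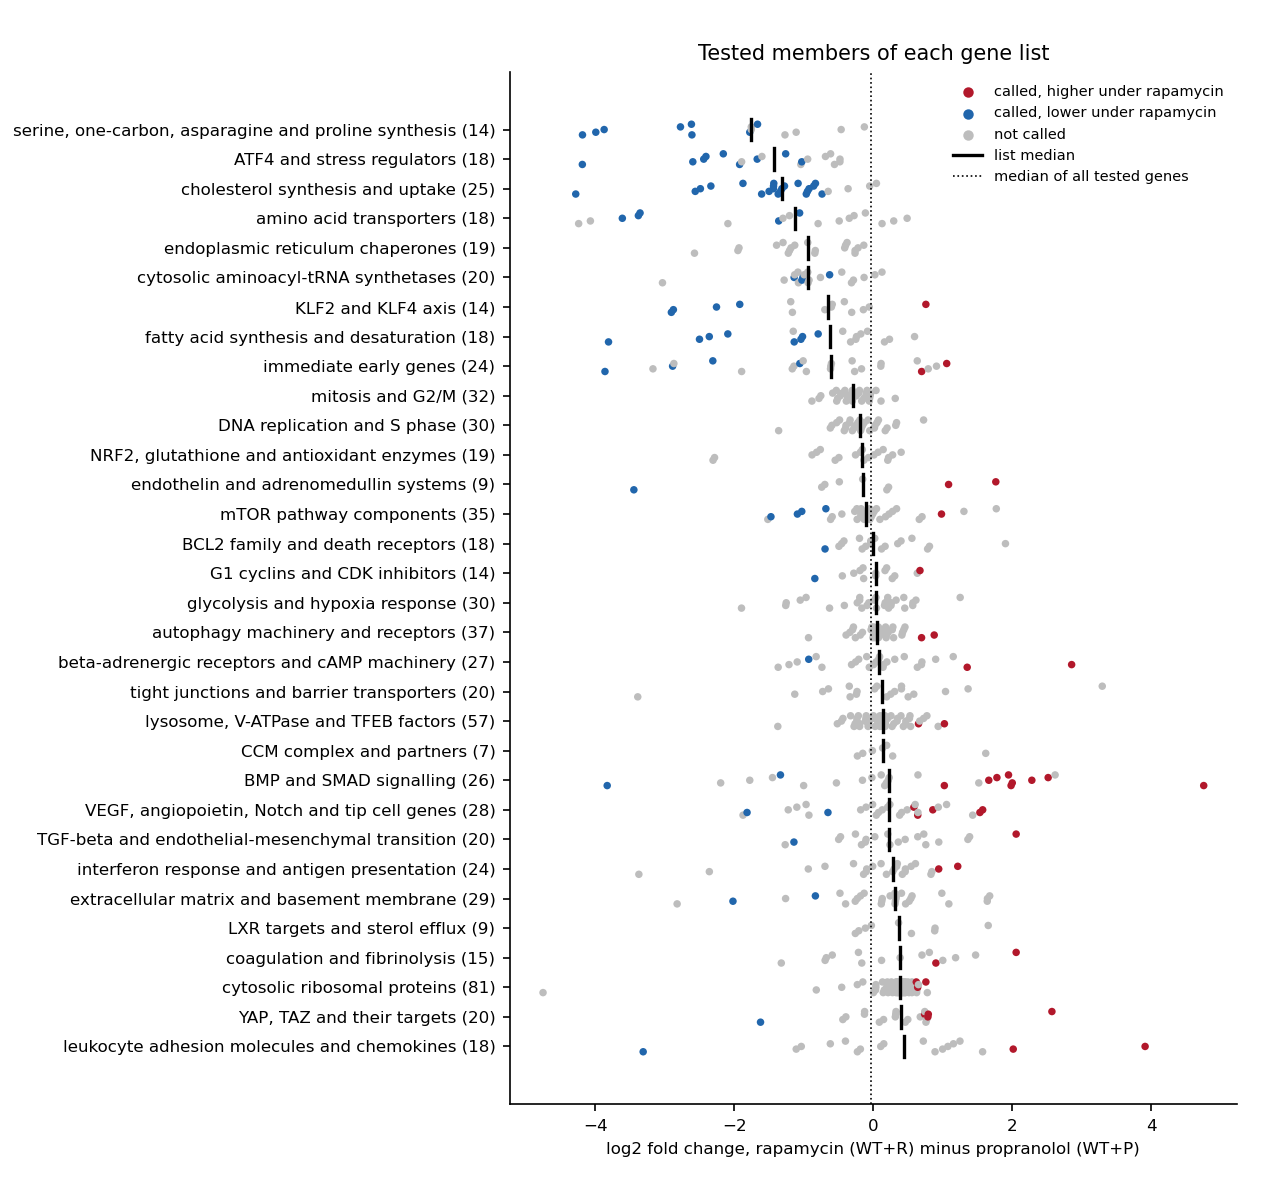
Log2 fold change of WT+R minus WT+P for each tested member of the gene lists (number tested in brackets), with called members in red or blue, the list median as a black bar and the median of all tested genes (-0.03) as a dotted line. The lists of serine synthesis, ATF4, cholesterol and transporter genes have medians between -1.77 and -1.13, and the BMP and SMAD list spreads from -3.83 to 4.76.

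Set against untreated WT cells, which both drug contrasts share, the medians of several lists lay on different sides of 0. The median log2 change of the cholesterol list was 0.90 in WT+P and -0.37 in WT+R, that of serine and folate synthesis 1.49 and -0.57, that of ATF4 and stress genes 1.10 and -0.39, and that of chaperones 0.86 and -0.01. For the BMP and SMAD list the medians were -0.07 in WT+P and 0.37 in WT+R. By the same test 677 genes were called in WT+R against WT (4.56%), 323 higher and 354 lower, and 12 in WT+P against WT (0.0809%), 11 higher and 1 lower, of which 7 belonged to the cholesterol list. The count for propranolol depended on single libraries: 0 genes were called without WT+P replicate 1, 0 without WT replicate 1 and 1328 without WT+P replicate 2. The count for rapamycin was 101 without WT+R replicate 1, 405 without WT replicate 1 and 406 without WT+R replicate 2.

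**Figure D3:**
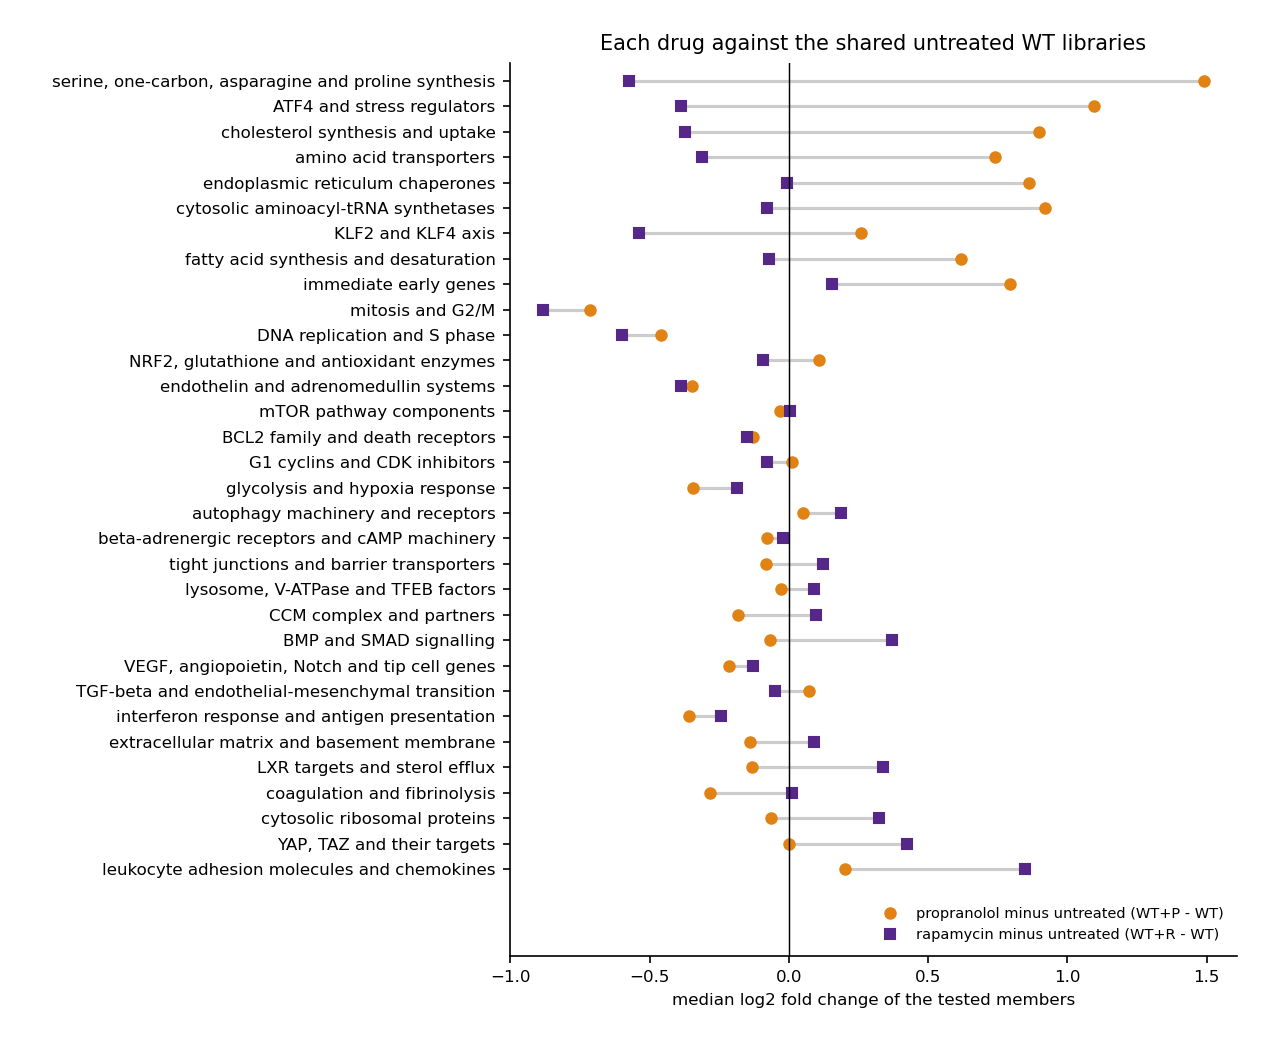
Median log2 fold change of the tested members of the gene lists, cell type markers left out, in WT+P minus WT (orange circles) and WT+R minus WT (purple squares), both against the same 3 untreated WT libraries. Among the lists drawn, the largest separations are those of serine synthesis (1.49 and -0.57) and ATF4 and stress genes (1.10 and -0.39), and both drugs lie below 0 for mitosis genes (-0.71 and -0.88).

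In the bone morphogenetic protein (BMP) pathway, in which ligands act through BMPR2 and endoglin on SMAD factors that switch on ID genes, 9 of 26 tested members were called higher in WT+R and 2 lower. Among ligands, Bmp2 (chr2:133394079-133404816, + strand, GRCm39) was at 514 and 170 CPM in WT+P and 26.1 and 17.8 CPM in WT+R, with 110 to 278 CPM untreated (-3.83 ± 0.52, edgeR adjusted p = 0.00258). Bmp6 went the other way, at 95.1 and 106 against 614 and 286 CPM (2.00 ± 0.33, edgeR adjusted p = 0.00694). Neither gene overlapped between the drugs. Among receptors, Eng, the co-receptor endoglin, was at 1080 and 1753 against 4678 and 4217 CPM (1.67 ± 0.21, edgeR adjusted p = 0.00231), and Bmpr2 was higher by 1.02 ± 0.18 (edgeR adjusted p = 0.00901). The signal factor Smad1 was lower, at 263 and 181 against 107 and 70.0 CPM (-1.33 ± 0.11, edgeR adjusted p = 0.000423).

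The inhibitory SMADs and Id1, Id2 and Id3, which BMP signalling induces, were higher under rapamycin. Id4 went the other way without passing the test (-1.45, edgeR adjusted p = 0.236). Smad6 (chr9:63860341-63929793, - strand, GRCm39) was at 23.8 and 45.0 CPM in WT+P and 162 and 228 CPM in WT+R, with 41.2 to 54.4 CPM untreated (2.52 ± 0.33, edgeR adjusted p = 0.00231). Smad7 was at 21.4 and 20.6 against 78.3 and 84.3 CPM (1.95 ± 0.12) and had the smallest edgeR adjusted p of all tested genes, 4.73e-05. Id3, an inhibitor of basic helix-loop-helix factors (chr4:135870808-135873066, + strand, GRCm39), was at 92.6 and 91.6 CPM in WT+P, 396 and 339 CPM in WT+R and 94.9 to 104 CPM untreated (1.99 ± 0.19, edgeR adjusted p = 0.00068). Propranolol-treated and untreated cells were thus at nearly the same Id3 level, and both rapamycin libraries were well above it. Id1 was higher by 1.78 ± 0.33 and Id2 by 2.29 ± 0.36 (edgeR adjusted p of 0.0108 and 0.00567), although 36.2% of the exonic bases of Id2 overlap another gene. Atoh8, a helix-loop-helix factor downstream of BMP signalling, showed the largest rise of the list, at 2.50 and 1.301 against 78.7 and 28.4 CPM (4.76 ± 0.69, edgeR adjusted p = 0.00326). Of the 26 members, 8 were called without the replicate block, 6 without WT+P replicate 1 and 6 without WT+R replicate 1.

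**Figure D4:**
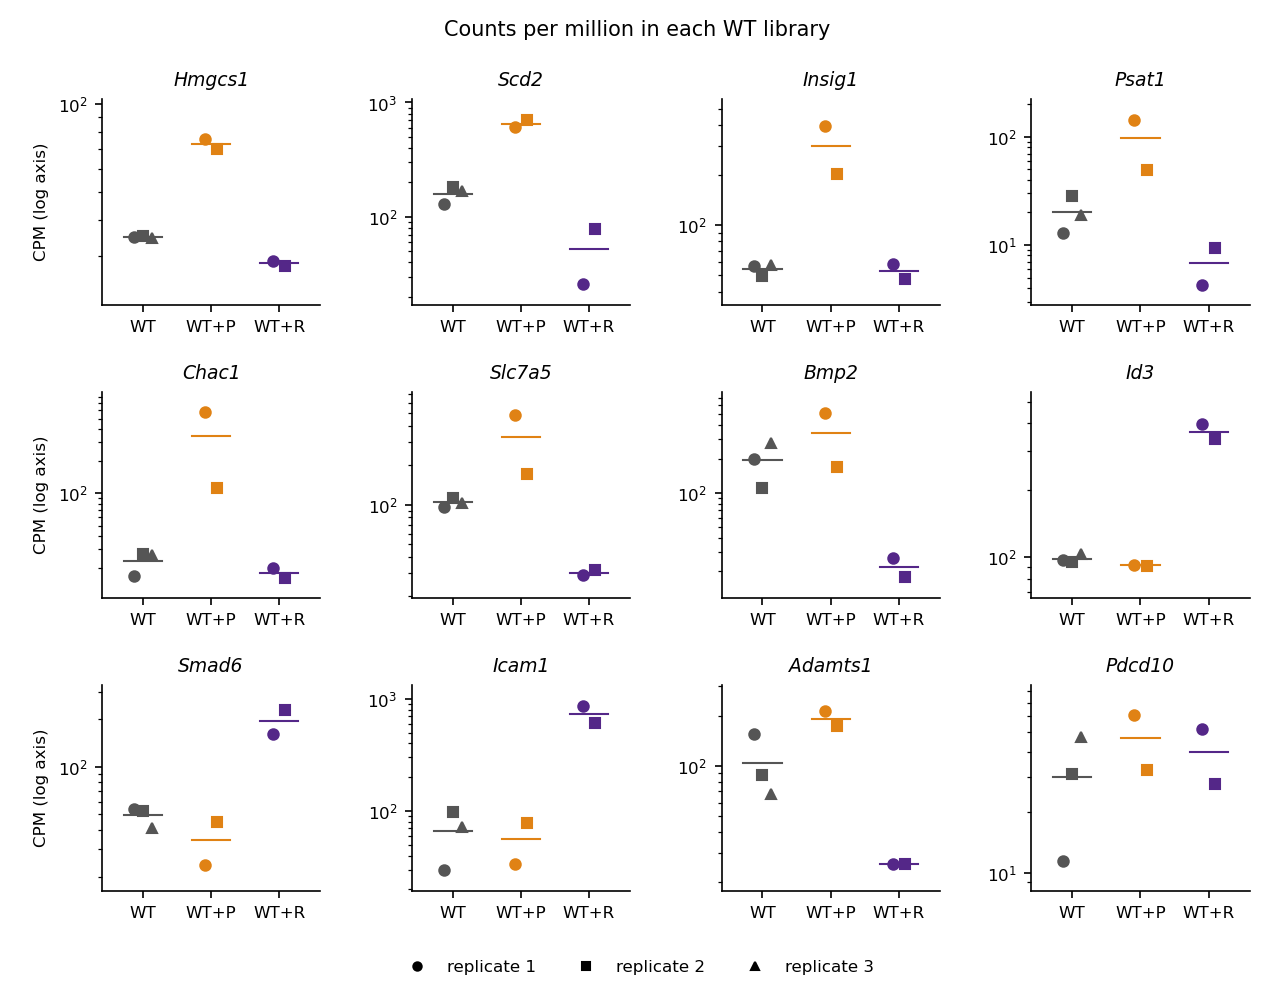
CPM of 12 genes on log axes in the 3 untreated, 2 propranolol and 2 rapamycin WT libraries, with the replicate number as the symbol and the group mean as a line. Hmgcs1, Scd2, Psat1, Chac1 and Slc7a5 are highest in WT+P, Id3, Smad6 and Icam1 are highest in WT+R (for Icam1 609 and 866 CPM), and Pdcd10 of the untreated WT replicate 1 lies at 11.5 CPM.

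The largest rises in WT+R included genes with few reads under propranolol. Cyp26b1, which degrades retinoic acid, was at 0.92 and 1.498 against 52.2 and 13.5 CPM (4.61 ± 0.65, edgeR adjusted p = 0.00299). Pdk4, which shuts off pyruvate dehydrogenase, was at 2.91 and 4.06 against 33.3 and 14.4 CPM (2.75 ± 0.69, edgeR adjusted p = 0.0413). Without the replicate block the edgeR adjusted p was 0.0268 for Cyp26b1 and 0.167 for Pdk4. The other genes of this group ranged from 2.05 for Thsd7a to 3.57 for Moxd1 and included Nuak2, Clec14a, Klhl6 and Car2. A lack of overlap between the drugs was a condition for entering the group. Without the replicate block Nuak2, Klhl6, Moxd1 and Thsd7a stayed under an edgeR adjusted p of 0.05. Clec14a (0.0641) and Car2 (0.286) did not.

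The largest falls in WT+R differed in where untreated cells lay: in some WT+P was above the untreated range, and in others WT+P overlapped with it and WT+R was below. Adm2, a peptide of the calcitonin family, had 174 and 38 reads in WT+P and 0 in both WT+R libraries, at least 68.6-fold lower against a floor of 3 reads over the group (edgeR adjusted p = 0.00298), with 0.08 to 0.11 CPM untreated. Atp2a3, a calcium pump of the endoplasmic reticulum, was at 19.3 and 16.3 CPM in WT+P, 0.22 and 1.33 CPM in WT+R and 0.62 to 4.41 CPM untreated (-4.67 ± 0.55, edgeR adjusted p = 0.00161). In both genes only the WT+P libraries lay above the untreated range. For Atp2a3 WT+R replicate 1 lay below it, and for Adm2 both WT+R libraries did, although its untreated level was itself close to 0. In Sprr1a, a cornified envelope protein, WT+P (47.9 and 57.8 CPM) and untreated cells (14.5 to 68.0 CPM) overlapped, and WT+R was below both at 1.298 and 4.34 CPM (-4.47 ± 0.43, edgeR adjusted p = 0.000711). Duox2, a hydrogen peroxide-producing oxidase, had the same layout at 2.17 and 1.696 CPM, 1.46 to 6.30 CPM untreated and 0.09 and 0.09 CPM in WT+R (-4.51 ± 0.68, edgeR adjusted p = 0.00417). Pthlh, the parathyroid hormone-like peptide, was at 26.2 and 29.5 against 0.94 and 2.19 CPM (-4.20 ± 0.46, edgeR adjusted p = 0.000995). Nts, neurotensin, had 67 and 33 reads in WT+P and 0 and 2 in WT+R, a ratio of 48.55 with an exact 95% interval of 13.1 to 406. Gng4, Ppef1 and Csn3 were also among the largest falls, between -4.38 and -3.95. Without the replicate block Adm2, Duox2, Pthlh and Csn3 stayed under an edgeR adjusted p of 0.05. Nts, Sprr1a, Atp2a3, Ppef1 and Gng4 did not, at 0.0504 to 0.1.

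Of 14 genes of the KLF2 and KLF4 axis, the flow-responsive factors known to rise when the CCM complex is lost, 4 were called lower in WT+R and 1 higher. Klf2 was at 218 and 256 CPM in WT+P and 106 and 289 CPM in WT+R (-0.31 ± 0.50, edgeR adjusted p = 0.756), so that the groups overlapped, and its sign turned to 0.29 without WT+R replicate 1. Klf4 was at 155 and 143 against 43.8 and 100.5 CPM (-1.16 ± 0.46, edgeR adjusted p = 0.157), without overlap but not past the test. The 4 lower genes were proteases of the ADAMTS family, which cut matrix proteoglycans. Adamts1 (chr16:85590579-85600009, - strand, GRCm39) was at 212 and 172 CPM in WT+P and 25.5 and 25.6 CPM in WT+R, with 67.3 to 156 CPM untreated (-2.91 ± 0.45, edgeR adjusted p = 0.00488). Adamts9 (-2.88 ± 0.46), Adamts4 (-2.26 ± 0.34) and Adamts5 (-1.92 ± 0.34) had edgeR adjusted p of 0.00562, 0.00412 and 0.00901, and none of the 4 overlapped between the drugs. Thbs1, the matrix protein thrombospondin 1, was the 1 member of 14 called higher, at 5355 and 3466 against 8622 and 6206 CPM (0.76 ± 0.19, edgeR adjusted p = 0.0433). Thbs1 lost the call when any of the 4 drug libraries was left out, and also without the replicate block (edgeR adjusted p = 0.211). Nos3, endothelial nitric oxide synthase (32.7% of exonic bases overlap another gene), was at 292 and 752 against 141 and 543 CPM (-0.70 ± 0.38, edgeR adjusted p = 0.286), with replicates further apart than the drugs. Of the 5 calls in this list 4 were made without the replicate block, 3 without WT+P replicate 1 and 0 without WT+R replicate 1.

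Among adhesion molecules and chemokines 2 of 18 were called higher and 1 lower, and 0 were called without WT+P replicate 1 or without WT+R replicate 1. Icam1, the leukocyte adhesion molecule (chr9:20926672-20940113, + strand, GRCm39), was at 34.0 and 77.7 CPM in WT+P, 866 and 609 CPM in WT+R and 29.8 to 97.6 CPM untreated (3.92 ± 0.63, edgeR adjusted p = 0.00606). Both rapamycin libraries stood well above the other 5, although the edgeR adjusted p of Icam1 was 0.086 without WT+P replicate 1 and 0.0646 without WT+R replicate 1. Vcam1 was at 351 and 248 against 758 and 578 CPM (1.16 ± 0.35, edgeR adjusted p = 0.0773), also apart but not called. Cxcl16 was higher by 2.02 ± 0.35 (edgeR adjusted p = 0.00791), although 84.8% of its exonic bases overlap another gene, and Ccl7, a monocyte chemokine, was lower by 3.31 on the log2 scale at 2.27 and 1.34 against 0.31 and 0.04 CPM. In the list of VEGF, angiopoietin, Notch and tip cell genes 5 of 28 were called higher and 2 lower. Esm1, a tip cell proteoglycan, was at 94.6 and 64.2 against 295 and 184 CPM (1.58 ± 0.15, edgeR adjusted p = 0.000711). Jag1, a Notch ligand, was at 32.2 and 119 against 152 and 222 CPM (1.54 ± 0.27, edgeR adjusted p = 0.00936), and Flt1, the decoy VEGF receptor, was higher by 0.86 ± 0.20 (edgeR adjusted p = 0.0317). Cxcr4, a chemokine receptor of tip cells, was lower within each pair, at 1434 against 469 CPM in replicate 1 and 444 against 107 CPM in replicate 2 (-1.82 ± 0.23, edgeR adjusted p = 0.00231), although WT+R replicate 1 exceeded WT+P replicate 2. The Notch ligands Dll4 (-1.10 ± 0.35) and Dll1 (-1.87 ± 0.73) did not pass the test, at edgeR adjusted p of 0.0863 and 0.151. Of the 28 members 0 were called without the replicate block, 3 without WT+P replicate 1, 2 without WT+R replicate 1 and 13 without WT+P replicate 2.

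In the vasoactive list 3 of 9 genes were called, 0 of them without the replicate block, without WT+P replicate 1 or without WT+R replicate 1. Edn1, endothelin 1, was at 719 and 400 CPM in WT+P and 1502 and 864 CPM in WT+R (1.09 ± 0.19, edgeR adjusted p = 0.00936), while its receptor Ednrb was at 14.4 and 2.72 against 0.63 and 0.64 CPM (-3.45 ± 0.67, edgeR adjusted p = 0.0149). Ligand and receptor thus differed in opposite directions, each without overlap. Ace, the angiotensin-converting enzyme, was higher within each pair by a fitted 1.77 ± 0.42 (edgeR adjusted p = 0.0321), with replicate 2 above replicate 1 in both groups. Of 15 coagulation and fibrinolysis genes 2 were called higher, among them Tfpi, an inhibitor of tissue factor (0.90 ± 0.24, edgeR adjusted p = 0.0491). These 2 calls are 13.3% of the list, beside 2.04% of all tested genes called higher. Of the 16 endothelial markers 3 were called higher, which were Eng, Flt1 and Emcn, the sialomucin endomucin, at 622 and 1119 against 1894 and 1927 CPM (1.17 ± 0.20, edgeR adjusted p = 0.00732), and 1 marker was called without WT+P replicate 1 or without WT+R replicate 1. Kdr, the main VEGF receptor, was at 53.2 and 197 against 318 and 332 CPM and did not pass (edgeR adjusted p = 0.16), and WT+P replicate 1 was the low library. The lower summed level of endothelial markers in WT+P replicate 1 moved with these values, and its part in them was not tested. Tight junction and barrier transport genes had 0 of 20 called by edgeR, 6 at an unadjusted p under 0.05 and 2 called by DESeq2.

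Of 35 mTOR pathway components 4 were called lower and 1 higher in WT+R, which is 14.3% beside 4.93% of all tested genes. These 5 calls became 0 without the replicate block, 0 without WT+R replicate 1, and 2 without WT+P replicate 1 or WT+R replicate 2. Prr5, a subunit of mTORC2, was at 38.0 and 36.3 against 17.8 and 10.7 CPM (-1.47 ± 0.25, edgeR adjusted p = 0.00798), and its relative Prr5l was at 30.4 and 42.2 against 76.0 and 65.1 CPM (0.98 ± 0.19, edgeR adjusted p = 0.0129). These paralogs lay apart in opposite directions. The adaptor Grb10 (-1.09 ± 0.28) and the stress-induced inhibitor Sesn2 (-1.03 ± 0.22) were higher in WT+P replicate 1 than in any other WT library. Mtor itself was at 58.3 and 55.9 against 64.2 and 49.8 CPM (-0.01 ± 0.11, edgeR adjusted p = 0.981), and Fkbp1a, which encodes FKBP12, was at 561 and 1088 against 1262 and 1374 CPM (edgeR adjusted p = 0.137). Of 27 beta-adrenergic and cAMP genes 2 were called higher and 1 lower, and 1 of the 3 calls was left without WT+P replicate 1 or without WT+R replicate 1. Rgs2, which restrains G protein signals, was at 0.97 and 4.14 against 6.76 and 32.1 CPM (2.86 ± 0.44, edgeR adjusted p = 0.00471). Pde4a, a cAMP phosphodiesterase, was at 19.1 and 19.1 against 57.2 and 41.1 CPM (1.35 ± 0.22, edgeR adjusted p = 0.00593), and Crem, a cAMP-responsive factor, was at 62.6 and 56.6 against 28.4 and 34.1 CPM (-0.93 ± 0.13, edgeR adjusted p = 0.00326). For Rgs2, Pde4a and Crem the untreated levels were near those of WT+P. These 3 calls are 11.1% of the list, beside 4.93% of all tested genes.

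Immediate early genes had 4 of 24 called lower and 2 higher, among them the NR4A orphan receptors. The 6 calls became 2 without the replicate block, 1 without WT+P replicate 1, 0 without WT+R replicate 1, 3 without WT+R replicate 2 and 12 without WT+P replicate 2. Nr4a1 was at 237 and 71.9 CPM in WT+P, 23.0 and 14.8 CPM in WT+R and 8.00 to 37.0 CPM untreated (-2.89 ± 0.47, edgeR adjusted p = 0.00639), and Nr4a3 was at 9.94 and 1.85 against 0.31 and 0.34 CPM (-3.86 ± 0.75, edgeR adjusted p = 0.0148). Nr4a2 was lower by 2.31 on the log2 scale (edgeR adjusted p = 0.0321), and for all 3 receptors WT+R overlapped with untreated cells while WT+P lay above them. Ier3, a survival gene, was higher within both pairs (1.06 ± 0.15, edgeR adjusted p = 0.00298), and 34.8% of its exonic bases overlap another gene. Of 20 genes of the YAP and TAZ axis 4 were called higher and 1 lower, of which 1 call was left without the replicate block, 1 without WT+P replicate 1 and 0 without WT+R replicate 1. Nuak2, a kinase induced by YAP, was at 10.8 and 11.6 against 87.1 and 46.0 CPM (2.57 ± 0.47, edgeR adjusted p = 0.0105), Amotl2 and Lats2, which restrain YAP, were each higher by 0.79, and Nt5e, the ecto-nucleotidase CD73, was lower (-1.62 ± 0.38, edgeR adjusted p = 0.032). Vim, the filament protein vimentin, was at 10040 and 7568 against 3507 and 4396 CPM (-1.14 ± 0.20, edgeR adjusted p = 0.00891) and was 1 of the 2 calls among 20 TGF-beta and mesenchymal genes. These calls are 10% of that list, beside 4.93% of all tested genes. Acta2, smooth muscle actin, was at 171 and 310 against 557 and 618 CPM (1.36 ± 0.63, edgeR adjusted p = 0.214), with 32.5 to 170 CPM untreated. Of the tested extracellular matrix genes 6.9% were called, beside 4.93% of all tested genes. In the matrix list the 2 calls of 29, both lost without the replicate block and without replicate 1 of either drug, were lower, Fbln5 (-2.02 ± 0.52, edgeR adjusted p = 0.0455) and Lamc1 (-0.83 ± 0.17, edgeR adjusted p = 0.0199).

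Of 57 lysosomal genes 2 were called higher, Ctsf and Ctsd (cathepsins F and D), which is 3.51% beside 2.04% of all tested genes, and 0 were called without the replicate block, without WT+P replicate 1 or without WT+R replicate 1. Ctsd was at 1305 and 1511 against 2183 and 2240 CPM (0.65 ± 0.17, edgeR adjusted p = 0.0431). Of 37 autophagy genes Calcoco1, a receptor (0.88 ± 0.12, edgeR adjusted p = 0.00298), and Bnip3l, a mitophagy receptor (0.70 ± 0.18, edgeR adjusted p = 0.0481), were called higher, and 0 without the replicate block. These 2 calls are 5.41% of the list, beside 2.04% of all tested genes called higher and 4.93% called in either direction. Of 81 cytosolic ribosomal protein genes 76 had a log2 change above 0 and 61 had both rapamycin libraries above both propranolol libraries, beside 17.5% of all genes, with a median of 0.39. Only 3 (3.7%) passed the test at more than 1.5-fold, which were Rpl37, Rps4x and Rpl17 at 0.76, 0.62 and 0.64, and 0 were called in the absence of the block. Their untreated levels were near those of WT+P, for example 305 to 399 CPM untreated, 337 and 340 CPM in WT+P and 579 and 473 CPM in WT+R for Rps4x.

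Of 30 replication genes 0 were called by edgeR and 0 by DESeq2 (3 at an unadjusted p under 0.05), and of 32 mitosis genes 0 by either tool (1 at an unadjusted p under 0.05). Mcm6, a helicase subunit (-0.53 ± 0.16, edgeR adjusted p = 0.0762), and Anln, a cytokinesis protein (-0.88 ± 0.37, edgeR adjusted p = 0.176), had the smallest p of each list. Relative to untreated cells the mitosis list had medians of -0.71 in WT+P and -0.88 in WT+R. Among G1 genes Ccnd2, cyclin D2, was lower at 587 and 720 against 268 and 487 CPM (-0.84 ± 0.16, edgeR adjusted p = 0.013), and Rb1 was higher at 28.9 and 29.7 against 46.8 and 46.5 CPM (0.67 ± 0.13, edgeR adjusted p = 0.013). Of 18 BCL2 family and death receptor genes the pro-apoptotic Bcl2l11 was called lower within both pairs, at 73.9 against 46.4 CPM and 30.2 against 18.4 CPM (-0.69 ± 0.18, edgeR adjusted p = 0.0455), and it lost the call when any of the 4 libraries was left out. This 1 call was 5.56% of the BCL2 and death receptor list, beside 4.93% of all tested genes. Tnfrsf10b, a death receptor, was at 197 and 152 against 139 and 109 CPM, an edgeR adjusted p of 0.0213 with a fold under 1.5, and Bax was at 332 and 284 against 344 and 262 CPM (-0.04 ± 0.13, edgeR adjusted p = 0.901). Glycolysis and hypoxia genes had 0 of 30 called by edgeR (7 at an unadjusted p under 0.05, 3 called by DESeq2), and Pfkfb4 had the smallest p (-1.26 ± 0.37, edgeR adjusted p = 0.0674). NRF2 and antioxidant genes had 0 of 19 called (6 at an unadjusted p under 0.05, 2 by DESeq2), and Srxn1 had the smallest p (-2.28 ± 0.61, edgeR adjusted p = 0.0518). Of 24 interferon and antigen presentation genes Tapbp and Irf1 were called higher, but 52.8% of the exonic bases of Tapbp and 46.0% of those of Irf1 overlap other genes. These 2 genes are 8.33% of the list, beside 2.04% of all tested genes called higher. Without WT+R replicate 1 none of the calls in the coagulation, TGF-beta, interferon and G1 lists was made, and without WT+P replicate 1 only the G1 list kept 1. CCM complex genes had 0 of 7 called by edgeR (1 at an unadjusted p under 0.05, 1 called by DESeq2), and Heg1, the receptor that anchors the complex, was at 191 and 620 against 960 and 1308 CPM (1.62 ± 0.51, edgeR adjusted p = 0.0822).

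Whether the drug difference itself differed between WT and KO cells was tested as an interaction. No gene passed at an adjusted p under 0.05 in edgeR (0% of 14838), 284 genes had an unadjusted p under 0.05, and DESeq2 called 2 with the replicate block and 1 without it. Id3 had the smallest unadjusted p, 0.000123 with an adjusted p of 1: rapamycin exceeded propranolol by 1.99 in WT cells and by 3.32 in KO cells, where KO+P was at 24.4 to 42.9 CPM and KO+R at 269 to 355 CPM. The next was Cyp26b1, which differed by 4.61 in WT and by 0.55 in KO cells (unadjusted p = 0.000333). Abca4, a lipid transporter, differed by -1.86 and -0.49 (unadjusted p = 0.000759), and Zbtb47 by -0.03 and 0.71 (unadjusted p = 0.000563). Kif14 rested on libraries without reads, since it was listed at 0 in WT+P and WT+R replicate 1.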

How the data were processed

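Poly(A) RNA from cultured mBMEC was sequenced without strand information, and the deposited per-transcript tables hold expected counts, lengths and TPM as Salmon writes them. The authors' notes list Salmon 1.5.2 and GRCm39, and the transcript index is not given in the sources used here. The expected counts the authors deposited were summed per gene through GENCODE M39 transcript identifiers (99.12% of 140789 transcripts matched), rounded and tested with edgeR 4.0.16 in R 4.3.3 (limma 3.58.1): TMM scaling, filterByExpr, glmQLFit and glmQLFTest over all 16 libraries with group and replicate number, Benjamini-Hochberg adjustment over 14838 genes. Salmon's effective lengths (bases, per the file headers) entered 1 alternative only, and TPM was not used. CPM are counts scaled to a common total after TMM scaling and are not divided by length. Reads shared by overlapping genes cannot be told apart without strand, and reads shared by paralogs were divided by Salmon.

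The paired design follows from the definition of the comparison. Deviations from group means correlated at 0.605 between WT+R and WT+P of the same number and at a median of 0.519 over 36 same-numbered pairs (0.032 to 0.693), against -0.23 over 70 others, and no source states that a number marks a shared culture. With the block, p-values rest on the spread left after group and replicate number, pooled over all 16 libraries with 8 residual degrees of freedom. Whether that is spread between cultures depends on what the number marks. Named genes were those the study names, the 12 largest called rises and falls with at least 1 CPM, no overlap of groups or exons, up to 4 called members per list (with none, the smallest p) and the 5 smallest interaction p. A few other list members were named after their values were seen. The comparison, lists and motifs were chosen with earlier results of these data known. Intervals (95%) and the floor of 3 reads cover counting error only. Alternatives were no block, DESeq2 1.42.0, glmTreat, other scaling, no filter, fewer libraries and each library left out. On simulated data with changed genes of known size (WT+R against WT+P), 50 of 50 genes were called at log2 changes of -2 and of 2, 20 of 50 at -1 and 24 of 50 at 1. In the measured libraries some log2 changes beyond 2 in size were called, such as Chac1 (-4.19), and others were not. Among those not called were Slc7a3 (-4.07, edgeR adjusted p = 0.0717) and Hspa5 (-2.57, edgeR adjusted p = 0.114). Every simulated gene had the same spread, and no simulated library stood apart in the way WT+P replicate 1 did. Whether the rates on simulated data hold for such genes was not tested. Promoters are from RefSeq (GRCm38.p6, table of 32851), matched by symbol or older symbol. Gene positions are those of GENCODE M39. The study's own fold changes were not used. A few genes that this rule names are not reported here.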

Additional observations from a re-analysis of the deposited data

How the results depend on the processing

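The difference between the drugs kept its direction in each setting for all called genes that entered the fit, but the number of calls depended on how the spread was estimated. Against 731 genes called in WT+R against WT+P, 194 were called with no replicate block, 1239 with DESeq2 and the block, 151 when edgeR's glmTreat tested against 1.5-fold, 19 in the 7 WT libraries alone and 31 in the 4 libraries alone, where few degrees of freedom remain. Leaving out 1 library gave 86 to 1766. With 2 settings chosen after seeing the data, 161 were called without WT replicate 1 and the block and 37 without the replicate 1 pair. For WT+R against WT (677), no block gave 207, glmTreat 125, the 7 WT libraries 0, leave-outs 101 to 802, and the added settings 93 and 124. For WT+P against WT (12), no block gave 1, DESeq2 154 with and 118 without the block, glmTreat 0, no filter 36, the 7 WT libraries 0, leave-outs 0 to 1328 and both added settings 0. For KO+R against KO+P (1428), no block gave 606, glmTreat 281, leave-outs 641 to 2112 and the added setting without WT replicate 1 and the block 535. The interaction count of 0 became 2 and 1 with DESeq2 with and without the block.

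Alternatives were computed for the genes named by rule, not for each gene in the text, and the signs that turned among them belonged to genes not called in WT+R against WT+P. The log2 change of Zbtb47 was 0.014 with an effective length offset, 0.06 and 0.07 without WT+P or WT+R replicate 1, 0.14 without that pair and -0.13 at the lowest leave-out. That of Pdcd10 ranged from -0.74 to 0.29 over the leave-outs (0.16 without WT+R replicate 2), that of Klf2 from -1.16 to 0.30 (0.18 without the replicate 1 pair), that of Bax from -0.153 to 0.089, and that of Kif14 from -0.26 to 0.29. The cause of these changes was not tested. With 2 cultures a side, log2 changes of 1 were often missed on simulated data.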
